A study of Mus musculus with 8 samples.

Results

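Gas5, Snhg1, Snhg3, Snhg5, Snhg6, Snhg8 and Snhg12 are transcripts that carry small nucleolar RNAs (snoRNAs) in their introns, and they were compared between Nrp-1+ and Nrp-1- induced regulatory T cells (iTreg). The members were chosen by name as non-coding snoRNA hosts, with earlier results of these data known. They are 7 of the 23361 genes listed, and all 7 passed the filter on low values. Gas5, Snhg1, Snhg6, Snhg8 and Snhg12 were lower in Nrp-1+ iTreg, by 16.2% to 23.0% of the Nrp-1- mean. Snhg3 and Snhg5 did not pass the test.

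Naive CD4+ T cells of WT Foxp3-RFP reporter mice, in which a red fluorescent protein reports Foxp3, were cultured with anti-CD3/CD28 microbeads, IL-2 at 50 U/ml and TGF-β at 2 ng/ml. Both groups received this same treatment, and both were sorted as viable CD4+ Foxp3-RFP+ cells before being split on surface NRP-1. The culture lasted 3 days by the treatment text of the labels, while their time field reads day 5. The study's methods place the sort for RNA sequencing on day 3. The libraries, 4 Nrp-1+ iTreg and 4 Nrp-1- iTreg, are labelled as biological replicates 1 to 4, and p-values measure the spread between them; other Treg libraries of the study were not analysed here. By the study's methods these were splenic T cells, the Foxp3-RFP reporter was on the B6 background, and mice were 7 to 8 weeks old; the purchased strains are listed as male. The cells are a population made in culture, and the sort, not a genetic change, separates the groups. The values are bulk RNA, in which fewer cells of a type and less RNA per cell cannot be told apart.

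A snoRNA host gene is transcribed by RNA polymerase II and spliced, and the snoRNAs are trimmed out of the excised introns. Box C/D snoRNAs guide 2′-O-methylation and box H/ACA snoRNAs guide pseudouridylation, mostly of ribosomal RNA. The spliced host RNA itself often has little coding potential and is commonly removed by nonsense-mediated decay (NMD), a pathway tied to translation. Gas5 was named as growth arrest-specific 5, because it accumulates when cells stop dividing, and its transcript is known to bind the glucocorticoid receptor. Many such hosts start with a run of pyrimidines, the 5′ terminal oligopyrimidine (TOP) feature that they share with ribosomal protein genes.

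In GENCODE M21 (GRCm38) the members lie on 5 chromosomes and hold 27 annotated snoRNAs, each within an intron of at least 1 host transcript. Gas5 (chr1:161034422-161038539, + strand) holds 9 of them and Snhg1 (chr19:8723475-8726443, + strand) holds 8. Snhg12 (chr4:132308623-132311024, + strand) holds 4. Snhg3 (chr4:132348014-132353686, - strand) and Snhg5 (chr9:88521050-88522929, - strand) hold 2 each. Snhg6 (chr1:9941959-9944118, - strand) and Snhg8 (chr3:123507552-123508404, - strand) hold 1 each. The Gas5 transcript with the most exons, 12, is 502 bases long after splicing, and that of Snhg1, with 10 exons, is 605 bases.

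**Figure D1:**
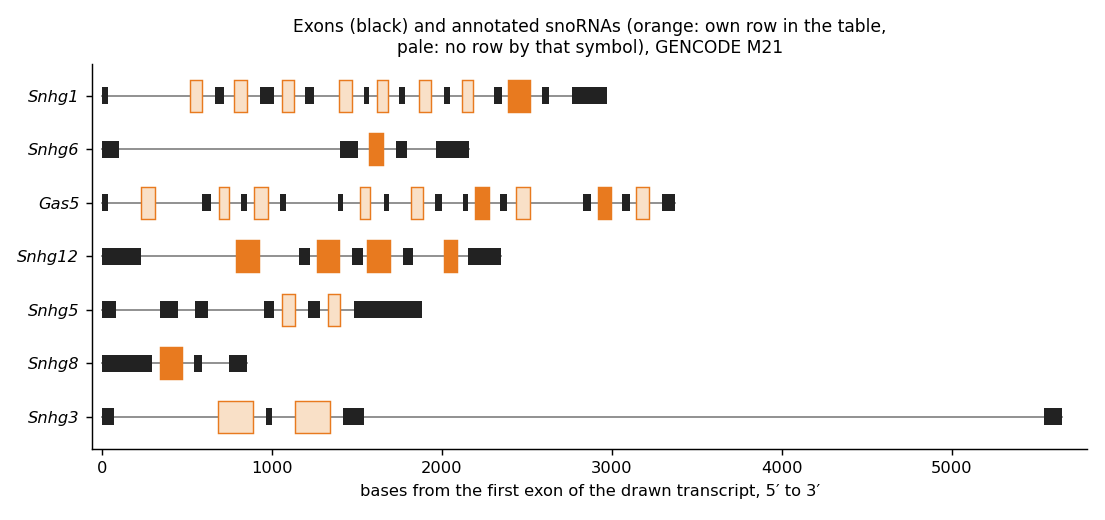
Exons (black) and annotated snoRNAs (orange) along each host, in bases from the first exon of the transcript with the most exons, drawn 5′ to 3′. Dark orange marks the 9 snoRNAs with a row of their own in the expression table; the other 18 have no row by that symbol. The snoRNAs sit between exons, in repeating order along Gas5 and Snhg1.

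The sequences around the start sites are shown because snoRNA hosts are known for the makeup of their start sites. RefSeq (GRCm38.p6) promoter windows matched 6 of the 7 members. Each run below holds the 50 bases before the annotated start and the 50 from it, 5′ to 3′ on the host's strand. Capitals mark TATAAA or TATATA on either strand and the longest run of C and T within 25 bases of the start. Both motifs and the run were picked after the sequences were seen, so they are a description only.
Gas5 chr1:161035116-161035215 (+ strand): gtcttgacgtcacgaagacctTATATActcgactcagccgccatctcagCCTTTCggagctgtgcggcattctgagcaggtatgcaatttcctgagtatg
Snhg1 chr19:8723437-8723536 (+ strand): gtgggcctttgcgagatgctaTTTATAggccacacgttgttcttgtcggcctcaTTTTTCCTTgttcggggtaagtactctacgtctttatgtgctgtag
Snhg8 chr3:123508287-123508386 (- strand): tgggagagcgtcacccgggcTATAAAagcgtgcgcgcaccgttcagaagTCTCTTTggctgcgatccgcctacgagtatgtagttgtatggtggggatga
Snhg12 chr4:132308628-132308727 (+ strand): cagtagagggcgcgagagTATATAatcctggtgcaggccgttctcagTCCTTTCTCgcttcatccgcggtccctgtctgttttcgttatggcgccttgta
Snhg5 chr9:88522848-88522947 (- strand): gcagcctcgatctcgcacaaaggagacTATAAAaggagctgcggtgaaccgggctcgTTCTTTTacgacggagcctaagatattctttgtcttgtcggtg
Snhg3 chr4:132353637-132353736 (- strand): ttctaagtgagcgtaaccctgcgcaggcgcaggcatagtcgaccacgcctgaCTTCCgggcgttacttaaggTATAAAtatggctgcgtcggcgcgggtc

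TATAAA or TATATA was found in 6 of the 7 windows (Gas5 has 2 windows), against 6.24% of all 32851 windows and 2.65% of the 9785 windows of tested genes, searched on both strands and with overlaps between the motifs allowed. On the host's own strand it was found in 5 of the 7 windows, against 4.81% of all windows. TATATA reads the same on both strands, and in Snhg3 the motif lies after the annotated start. A run of 9 pyrimidines occurs in Snhg1 and Snhg12, and 13.3% of all windows have a run at least as long. The runs of Snhg5 and Snhg8, with 7 bases, are matched or passed in 29.3% of windows, that of Gas5, with 6, in 43.9%, and that of Snhg3, with 5, in 64.7%. The run starts within 3 bases before the annotated first base in Gas5, Snhg8 and Snhg12. The other Gas5 window, further upstream, holds neither motif and only a run of 3.

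Across all genes the 2 subsets differed widely, which sets the background for the members. Of 10467 genes that averaged at least 1 FPKM, limma on log2(FPKM + 1) called 40.9% at an adjusted p under 0.05, 20.0% lower and 20.9% higher in Nrp-1+ iTreg. FPKM, fragments scaled by exon length and by the mapped fragments of the library, is a level per length, so it can be set side by side between genes. Nrp1, on which the cells were sorted, was at 20.4 to 22.0 FPKM in Nrp-1+ and 4.70 to 5.31 in Nrp-1- iTreg. Cd4, Cd3e and Foxp3 were present in every library. Of 7 listed CD4+ Treg markers, Nrp1 among them, 4 were called higher in Nrp-1+ iTreg and 1, Ctla4, lower. Of 17 markers of other cell types, 12 had a mean under 1 and Ms4a1 was at 0 throughout; their summed FPKM was 29.9 to 32.9 in Nrp-1+ and 25.1 to 27.5 in Nrp-1- iTreg. The low values give a relative depth of 0.994 to 1.22 and 0.810 to 1.24 in the respective groups, and short RNA genes made up 1.77% to 43.9% of a library's summed FPKM.

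The members spanned a wide range of levels. Over the 8 libraries Snhg1 averaged 158.8 FPKM, above 94.5% of tested genes, followed by Snhg6 (81.5), Gas5 (50.4), Snhg12 (43.0), Snhg5 (22.3), Snhg8 (21.1) and Snhg3 (12.9). Snhg5 and Snhg8 overlapped in both groups, so that pair has no order beyond its spread. Added together, the members came to 341.3 to 373.7 FPKM in the Nrp-1+ libraries and 403.4 to 443.4 FPKM in the Nrp-1- libraries. The summed level did not overlap between the groups.

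Gas5, the host with the most snoRNAs, was at 46.5, 44.1, 48.5 and 44.5 FPKM in Nrp-1+ replicates 1 to 4. It was at 52.2, 55.5, 54.4 and 57.2 FPKM in Nrp-1- replicates 1 to 4. Every Nrp-1+ library was below every Nrp-1- library. The means were 45.9 ± 2.02 and 54.8 ± 2.09 FPKM (SD, n = 4), a log2 fold change of -0.25 (95% interval -0.34 to -0.16; limma adjusted p = 0.00125), or 16.2% less. Its coefficient of variation was 4.40% in Nrp-1+ and 3.81% in Nrp-1- iTreg.

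Snhg1, the most abundant member and host of a row of C/D snoRNAs, was at 153.2, 139.7, 145.0 and 141.2 FPKM in Nrp-1+ iTreg. The Nrp-1- libraries were at 159.0, 161.4, 184.7 and 186.0 FPKM. The groups did not overlap, although Nrp-1+ replicate 1 and Nrp-1- replicate 1 lay close together. The means were 144.8 ± 6.01 and 172.8 ± 14.6 FPKM (SD, n = 4), a log2 fold change of -0.25 (SE 0.06; limma adjusted p = 0.0110). With quantile normalization the value was -0.26 and the adjusted p 0.0596, which misses the threshold.

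Snhg6, which carries the C/D snoRNA Snord87, was at 80.6, 63.0, 71.1 and 75.3 FPKM in Nrp-1+ iTreg. The Nrp-1- libraries were at 90.5, 96.8, 85.1 and 90.0 FPKM. All of the Nrp-1+ values lay below the lowest Nrp-1- value. The means were 72.5 ± 7.44 and 90.6 ± 4.77 FPKM (SD, n = 4), with a log2 fold change of -0.32 (SE 0.07; limma adjusted p = 0.00866), or 20.0% less.

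Snhg12, whose introns hold the H/ACA snoRNAs Snora16a, Snora44 and Snora61 and the C/D snoRNA Snord99, showed the largest relative difference among the members. It was at 41.2, 37.1, 35.7 and 35.5 FPKM in Nrp-1+ iTreg and at 49.7, 45.4, 47.9 and 51.2 FPKM in Nrp-1- iTreg. The highest Nrp-1+ library, replicate 1, lay below the lowest Nrp-1- library, replicate 2. The means were 37.4 ± 2.64 and 48.5 ± 2.48 FPKM (SD, n = 4), a log2 fold change of -0.37 (95% interval -0.49 to -0.24; limma adjusted p = 0.000999), or 23.0% less.

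Snhg8, host of the H/ACA snoRNA Snora24, was at 18.5, 17.5, 20.9 and 20.2 FPKM in Nrp-1+ iTreg. The Nrp-1- libraries were at 20.3, 24.0, 23.3 and 24.3 FPKM. The groups overlapped, since Nrp-1+ replicate 3 lay above Nrp-1- replicate 1. The means were 19.2 ± 1.56 and 23.0 ± 1.84 FPKM (SD, n = 4), with a log2 fold change of -0.24 (SE 0.07; limma adjusted p = 0.0248). This call was the least stable of the members: it was lost without Nrp-1+ replicate 1 or 2 or Nrp-1- replicate 2, 3 or 4 (adjusted p 0.0607 to 0.0668 in limma, value -0.24 to -0.20).

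Snhg3, host of the H/ACA snoRNAs of the Snora73 family, was at 14.5, 15.6, 13.1 and 11.7 FPKM in Nrp-1+ iTreg. The Nrp-1- libraries were at 10.4, 14.8, 9.96 and 12.9 FPKM. The groups overlapped, with a log2 fold change of 0.19 (95% interval -0.12 to 0.49; limma adjusted p = 0.291). Rcc1, which encodes the nucleotide exchange factor of Ran, overlaps Snhg3 on the same strand, so that reads of the pair may be shared and the Snhg3 value is uncertain. Rcc1 was 35.7 ± 2.15 FPKM in Nrp-1+ and 21.3 ± 0.564 FPKM in Nrp-1- iTreg (SD, n = 4; log2 fold change 0.72, limma adjusted p = 5.78e-06), and its part in the Snhg3 value was not tested.

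Snhg5, host of the Snord50 pair, was at 19.4, 24.3, 25.2 and 20.1 FPKM in Nrp-1+ iTreg. The Nrp-1- libraries were at 21.4, 19.9, 26.1 and 21.8 FPKM. The groups overlapped almost fully, and the log2 fold change was -0.01 with a 95% interval of -0.25 to 0.24 (limma adjusted p = 0.976). Decreases of the size seen in Snhg6 and Snhg12 lie outside that interval.

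**Figure D2:**
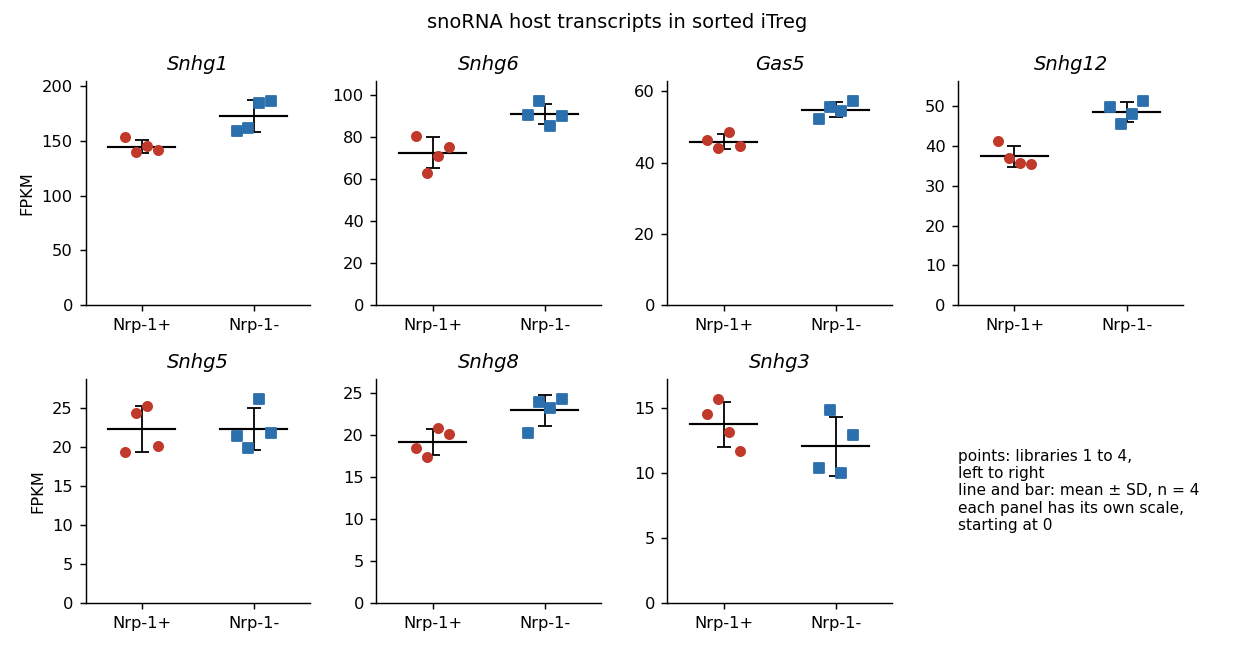
FPKM of each member by library (points, replicates 1 to 4 from left to right) with mean and SD (n = 4), each panel on its own scale from 0. Gas5, Snhg1, Snhg6 and Snhg12 show no overlap between Nrp-1+ and Nrp-1- iTreg, Snhg8 overlaps in 1 library of each group, and Snhg3 and Snhg5 overlap broadly.

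In all, 5 of the 7 members were called lower in Nrp-1+ iTreg and 0 were called higher, against 20.0% of all tested genes called lower. Because the members were chosen with earlier results of these data known, such counts are a description only. With the replicate number as a block, the count of members was the same, against 16.0% of tested genes. In 4 of the 7 the groups did not overlap, against 19.3% of tested genes that were lower without overlap. The exact two-sided permutation test gave 0.0286 for each of those 4, the smallest p that 4 libraries against 4 allow; it gave 0.0571 for Snhg8, 0.314 for Snhg3 and 1 for Snhg5. The median log2 fold change was -0.25 over the 7 members, -0.02 over all tested genes and -0.18 over all genes called lower. The change in Snhg12 was larger than that of 92.5% of the genes called lower, that in Snhg6 than 88.3%, and those in Gas5, Snhg1 and Snhg8 than 73.5% to 75.5%.

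The scale of the libraries bears on changes of this size. Genes other than short RNA genes summed to 680562 FPKM on average in Nrp-1+ and 710941 in Nrp-1- iTreg. When each library was rescaled to that sum, the members had a median of -0.19 and all tested genes one of 0.04. Relative to all genes the members lay at -0.23 with and without rescaling. Dividing all genes of a library by the same factor moves their log2 fold changes nearly alike. That relative figure could therefore hardly change, and it is no test of the scaling. Gas5, Snhg1, Snhg6 and Snhg12 were still called lower, and Snhg8 had an adjusted p of 0.0504 in limma. Under that scaling 2746 genes (26.2%) were called higher and 971 (9.28%) lower, in place of 2189 and 2093.

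Within the groups the members did not vary as 1 block. Over the deviations of the 8 libraries from their group means, the 21 pairs of members had a median Pearson correlation of 0.08, and 16 of the 21 were above 0. The highest was 0.76, between Gas5 and Snhg8, and the lowest -0.82, between Snhg5 and Snhg6. These are descriptions over 8 libraries that share their scaling. Among the genes whose level over the 8 libraries was most like the mean of the members were Rps15a (Pearson r 0.995), Tespa1 (0.989), Rpl35a (0.988) and Rpl5 (0.988); Rps15a, Rpl35a and Rpl5 encode ribosomal proteins. By deviation from the group means they were Sec61g (0.980), Glmn (0.980), Rpl35a (0.979), Rps15a (0.973) and Atp5j2 (0.971). All these genes were picked as the highest of a search over the tested genes outside the members and short RNA genes. High values are therefore built in, and those by level include the difference between the groups.

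The protein-coding genes nearest to the 5 members that were lower mostly did not pass the test. Slc3a2, the heavy chain of amino acid transporters, starts 106 bases from Snhg1 on the opposite strand and was 35.4 ± 1.30 and 33.3 ± 1.64 FPKM in Nrp-1+ and Nrp-1- iTreg (SD, n = 4; limma adjusted p = 0.115), though it was called higher after rescaling (0.15, limma adjusted p = 0.00984). Zbtb37, which overlaps Gas5 on the opposite strand, was far less abundant than Gas5, at 1.49 and 1.73 FPKM (limma adjusted p = 0.235). Trnau1ap, 739 bases from Snhg12, was 18.2 and 20.6 FPKM (adjusted p = 0.0710). It was called without short RNA genes in the limma fit (adjusted p = 0.0348) and without Nrp-1- replicate 3 (adjusted p = 0.0186). Mcmdc2, overlapping Snhg6, was under the filter at 0.222 and 0.190 FPKM. Prss12, 955 bases from Snhg8 and also under the filter, was 0.627 and 1.08 FPKM, with no overlap (adjusted p = 0.00167 in the limma fit of all genes above 0). Zfp949, the nearest to Snhg5, lies 25091 bases away and was 6.03 and 6.75 FPKM (limma adjusted p = 0.0856). The 2 library kits named in the labels and in the study's methods differ, so that strand use is uncertain and reads of opposite-strand overlaps may not be separated.

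Of 11 other non-coding snoRNA hosts tested, 6 were lower and 1 was higher in Nrp-1+ iTreg, against 20.0% and 20.9% of all tested genes, with a median log2 fold change of -0.42. Zfas1, the most abundant of them, was 180.5 ± 6.02 and 242.5 ± 20.2 FPKM (SD, n = 4; log2 fold change -0.42, limma adjusted p = 0.000681). Epb41l4aos was 64.5 and 91.7 FPKM (-0.50, limma adjusted p = 0.000198) and Snhg16 was 12.4 and 18.3 FPKM (-0.53, limma adjusted p = 0.000311). Snhg7 (4.17 and 6.80 FPKM; limma adjusted p = 0.0153) and Snhg17 (1.86 and 2.75 FPKM; limma adjusted p = 0.00189) were lower without overlap, but Snhg7 was not called with the replicate block (limma adjusted p = 0.0641). Snhg9 was also called lower (limma adjusted p = 0.0451), but the groups overlapped, and leaving out any library other than Nrp-1+ replicate 3 ended the call (adjusted p 0.0628 to 0.109). Snhg15 was the exception in direction, at 26.6 ± 1.49 and 23.1 ± 1.12 FPKM (SD, n = 4; log2 fold change 0.20, limma adjusted p = 0.0113), with every Nrp-1+ library above every Nrp-1- library. Snhg4, Snhg10, Snhg20 and Dancr did not pass, with limma adjusted p of 0.0752 to 0.856, and Snhg11 was near 0. Snhg20 (listed as 2810008D09Rik) was called lower without short RNA genes in the limma fit (adjusted p = 0.0265) and without Nrp-1+ replicate 1 (adjusted p = 0.0254).

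**Figure D3:**
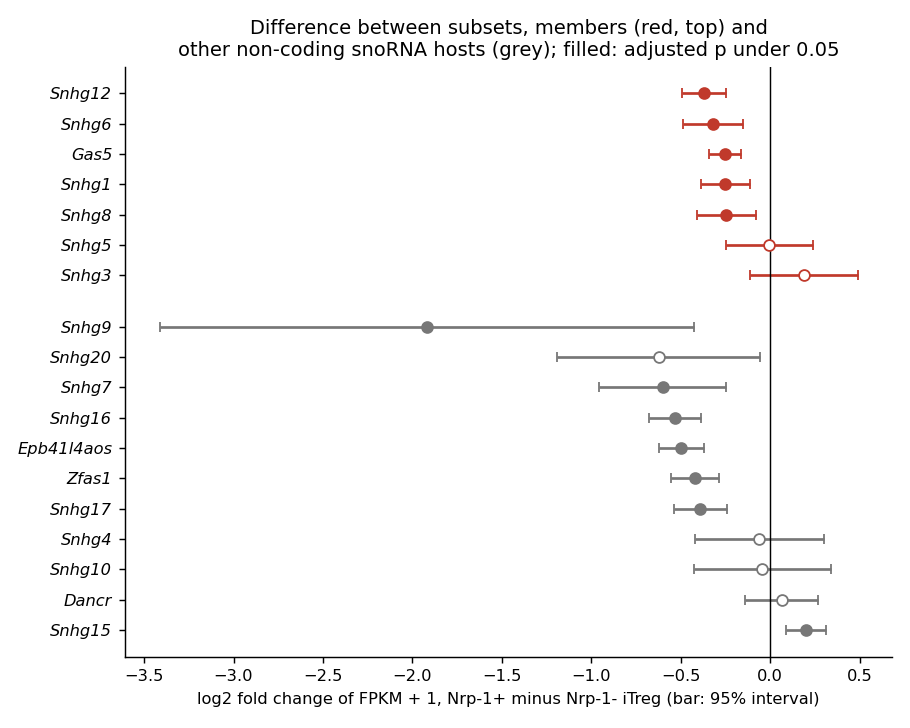
Log2 fold change of FPKM + 1, Nrp-1+ minus Nrp-1- iTreg, with 95% intervals for the members (red) and the other tested non-coding hosts (grey); filled points passed an adjusted p of 0.05. Of the members, 5 lie left of 0, Snhg5 lies on it and the interval of Snhg3 crosses it; Snhg15 is the only called host to the right.

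Of 29 protein-coding snoRNA hosts tested, many of them ribosomal protein and translation factor genes, 21 were lower and 2 higher, against 20.0% and 20.9% of all tested genes, with a median log2 fold change of -0.13. This count depended on the settings: 23 were called in all, but 14 without Nrp-1- replicate 3, 15 after rescaling (12 lower and 3 higher, against 9.28% and 26.2% of all genes), 11 with the replicate block (9 lower and 2 higher) and 3 with quantile normalization. The largest decreases were Eif4a2, a translation initiation helicase (69.9 ± 1.30 and 89.5 ± 2.62 FPKM; SD, n = 4; log2 fold change -0.35, limma adjusted p = 1.94e-05), and the ribosomal protein gene Rpl12 (log2 fold change -0.24, limma adjusted p = 0.00456). With quantile normalization Rpl12 was at -0.04 (limma adjusted p = 0.854). The 2 that were higher were Hspa8, a chaperone (0.17, limma adjusted p = 0.000682), and Nop56, a C/D snoRNP core protein (0.14, limma adjusted p = 0.0306). The Nop56 call was lost without any of Nrp-1+ replicates 1, 2 and 4 and Nrp-1- replicates 1, 2 and 3 (limma adjusted p 0.0683 to 0.0769). With quantile normalization neither Hspa8 (0.26, limma adjusted p = 0.301) nor Nop56 (0.12, limma adjusted p = 0.0950) was called.

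Of 18 tested proteins that bind and assemble snoRNAs, 4 were higher and 1 was lower, against 20.9% and 20.0% of all tested genes, with a median of 0.01. After rescaling 6 were higher and 0 lower, against 26.2% and 9.28% of all genes. The median relative to all genes, which such a rescaling can hardly change, was 0.03 in both fits. Pih1d1, a subunit of the R2TP assembly complex, was higher (51.2 and 40.1 FPKM; limma adjusted p = 0.000360), as was the H/ACA core protein Nhp2 (51.8 and 45.6 FPKM; limma adjusted p = 0.0123). Fbl, the C/D methyltransferase fibrillarin, was lower (78.7 and 86.3 FPKM; limma adjusted p = 0.0114). After rescaling Fbl was at -0.07 (adjusted p = 0.146).

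Among 18 NMD factors 2 were higher and 6 lower, against 20.9% and 20.0% of all tested genes, with a median of -0.05. After rescaling 4 were higher and 1 lower, against 26.2% and 9.28% of all genes. The median relative to all genes, which rescaling can hardly change, was -0.04 before and -0.03 after it. Upf3b (0.26, limma adjusted p = 0.00773) and the exon junction helicase Eif4a3 (0.18, limma adjusted p = 0.000222) were higher, and Upf2 (-0.21, limma adjusted p = 0.000731) and the kinase Smg1 (-0.19, limma adjusted p = 0.00590) were lower. After rescaling Smg1 was at -0.13 (limma adjusted p = 0.0930). Of 16 genes of mTOR signalling and TOP control, 2 were higher and 2 lower, 4 called in all against 40.9% of tested genes, and after rescaling 3 were higher and 1 lower, against 26.2% and 9.28%. Sesn2, a stress-induced inhibitor of mTORC1, was 15.6 and 11.2 FPKM (limma adjusted p = 7.87e-05). Rps6, itself a TOP transcript, was 2066 and 2381 FPKM (limma adjusted p = 0.00214), but at -0.08 with quantile normalization (limma adjusted p = 0.720). Eif4e, the cap-binding protein, was 0.14 higher (limma adjusted p = 0.0207), a call lost without Nrp-1+ replicate 1 or 2 or Nrp-1- replicate 2 (limma adjusted p 0.0501 to 0.0560), with quantile normalization (limma adjusted p = 0.0658) and with the replicate block (limma adjusted p = 0.0666). Tsc1, an inhibitor of mTORC1, had a log2 fold change of -0.14 (limma adjusted p = 0.00664), but of -0.09 after rescaling (limma adjusted p = 0.143).

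Of 11 tested genes of the glucocorticoid receptor and its targets, given because of the known binding of Gas5, 6 were higher and 1 lower, against 20.9% and 20.0% of all tested genes, with a median of 0.11. Fkbp5, a receptor co-chaperone and target, was 57.7 ± 0.758 and 42.1 ± 0.682 FPKM (SD, n = 4; limma adjusted p = 1.14e-06). Tsc22d3, which encodes the glucocorticoid-induced leucine zipper, went the other way, at 213.0 ± 7.93 and 275.6 ± 2.88 FPKM (SD, n = 4; limma adjusted p = 2.39e-05). Hsp90aa1, a chaperone that holds the receptor, was 174.6 and 137.8 FPKM (limma adjusted p = 0.000129).

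Genes of the cell cycle moved with the groups too. All 25 proliferation genes were higher in Nrp-1+ iTreg, against 20.9% of all tested genes, with a median log2 fold change of 0.90; Tk1 was 60.2 and 28.4 FPKM and Mcm5 was 83.0 and 41.0 FPKM. Their summed FPKM was 3052 to 3125 in Nrp-1+ and 1662 to 1690 in Nrp-1- iTreg, and their part in the levels of Gas5 and the other hosts was not tested. Of the markers of other cell types, Cd74, Itgam and Hba-a1 were higher and Cd8b1 lower in Nrp-1+ iTreg, and their part was not tested either.

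**Figure D4:**
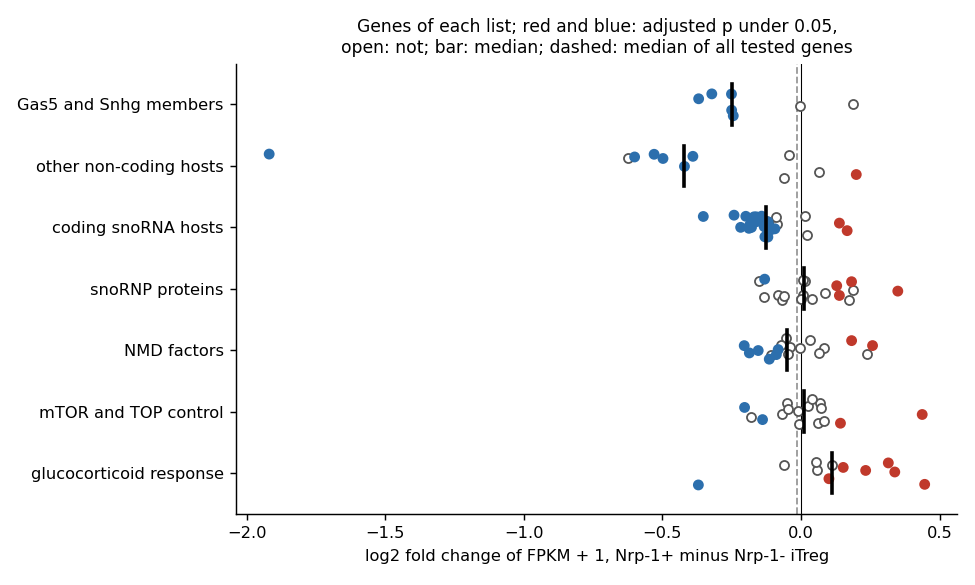
Log2 fold change of FPKM + 1, Nrp-1+ minus Nrp-1- iTreg, for each tested gene of the lists (coloured points passed an adjusted p of 0.05, red higher and blue lower; bar, median; dashed line, median of all tested genes). The medians of the members (-0.25), other non-coding hosts (-0.42) and coding hosts (-0.13) lie left of 0, while those of the snoRNP, NMD, mTOR and glucocorticoid lists lie between -0.05 and 0.11.

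The snoRNAs inside the members were poorly sampled. Of 28 snoRNA symbols looked up for the members, 8 had a row and 6 of those were above 0 in some library. The ninth row in the hosts, listed as Mir5117 and typed as a snoRNA in Gas5 by GENCODE, was looked up after the values were seen and reached at most 1.84e-05 FPKM. The sequences of 4 are shown because their rows were the ones that differed most between libraries; capitals mark a TGATGA match to box C, a CTGA match to box D or the ACA box near the 3′ end, where found (coordinates in GRCm38).
Snord22 in Snhg1 chr19:8725866-8725991 (+ strand): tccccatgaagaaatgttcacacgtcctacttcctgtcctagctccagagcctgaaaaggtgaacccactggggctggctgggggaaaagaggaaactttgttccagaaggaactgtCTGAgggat
Snord47 in Gas5 chr1:161038082-161038158 (+ strand): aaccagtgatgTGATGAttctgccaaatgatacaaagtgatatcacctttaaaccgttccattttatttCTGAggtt
Snord87 in Snhg6 chr1:9942463-9942549 (- strand): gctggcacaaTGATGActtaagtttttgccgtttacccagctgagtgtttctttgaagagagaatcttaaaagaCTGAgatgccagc
Snora24 in Snhg8 chr3:123507937-123508066 (- strand): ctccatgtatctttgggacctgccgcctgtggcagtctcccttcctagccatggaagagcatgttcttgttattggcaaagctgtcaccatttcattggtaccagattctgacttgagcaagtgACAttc

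Snord22, in an intron of Snhg1, was at 7.73, 15.4, 0 and 0 FPKM in Nrp-1+ replicates 1 to 4 and at 62.5, 59.0, 19.1 and 24.1 FPKM in Nrp-1- replicates 1 to 4. The groups did not overlap. In the limma fit of the 16289 genes above 0 in any library, of which 11.7% were called lower, its log2 fold change was -3.43 (SE 1.01; adjusted p = 0.0412), the only embedded snoRNA called. The call was lost without Nrp-1+ replicate 3 or 4 or any 1 Nrp-1- replicate (limma adjusted p 0.0664 to 0.108) and with a pseudocount of 0.1 (limma adjusted p = 0.0702).

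Snord47, in Gas5, was at 75.6 FPKM in Nrp-1- replicate 4 and at 0 in the other 7 libraries. Snord87, in Snhg6, was at 46.7 FPKM in Nrp-1+ replicate 1 and at 0 elsewhere. Snora24, in Snhg8, was at 17.5 FPKM in Nrp-1+ replicate 3 and at 15.0 and 30.3 FPKM in Nrp-1- replicates 1 and 4, and was under 0.01 in the rest. In Snhg12, Snora16a was above 0 in 4 of 8 libraries and Snora44 in 3, while Snora61 and Snord99 were listed at 0 in all 8. None of the 5 rows above 0 was called, with limma adjusted p of 0.491 to 0.982. SnoRNAs are short and lack a poly(A) tail, FPKM divides by that short length, and the study's methods name a polyA selection, so a listed 0 does not show that a snoRNA was missing from the cells.

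**Figure D5:**
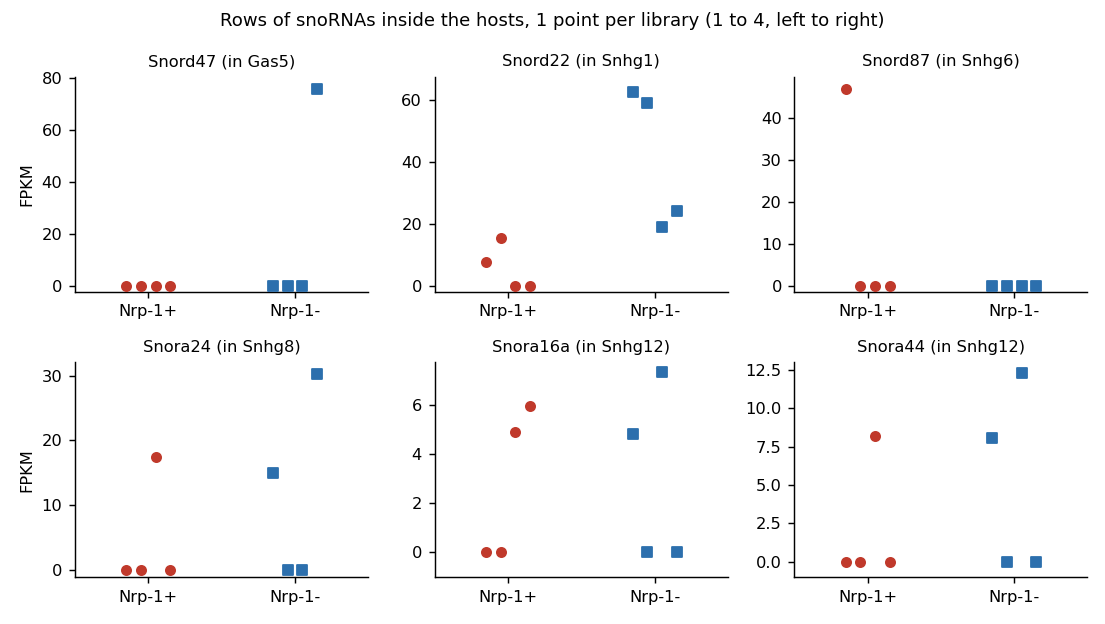
FPKM of the 6 embedded snoRNAs above 0 in at least 1 library, 1 point per library (replicates 1 to 4 from left to right), each panel on its own scale. Snord22 is higher in all 4 Nrp-1- libraries; Snord47 and Snord87 each come from 1 library, and Snora24, Snora16a and Snora44 are scattered over both groups.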

How the data were processed

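RNA of 4 Nrp-1+ and 4 Nrp-1- iTreg libraries was sequenced on the Illumina HiSeq. The reads went through the CLC Genomics Workbench and Cufflinks, and the authors deposited the resulting FPKM, with 1 row per gene symbol; the submitters' processing notes name GRCm38 and mm10. The labels name a SMARTER kit and the study's methods a directional NEBNext kit with polyA selection. The files hold no counts, so depth is unknown except for a relative depth from values under 0.3 FPKM, and no count model was run.

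Genes that averaged at least 1 FPKM (10467 of 23361) were tested on log2(FPKM + 1), a scale that understates changes of low genes, with limma 3.58.1 (lmFit, eBayes with trend; R 4.3.3) and Benjamini-Hochberg adjustment over all tested genes. Genes under the filter come from a fit of 16289 genes above 0. On simulated data of 10467 genes, 100 were changed by 1 and 100 by 0.25 (log2), and the fit recovered 100% and 57% of them. Far more genes were called in the real data, so these shares need not hold there. Exact two-sided permutation tests used each member's 8 values. Python 3.11.15 with numpy 2.4.6, pandas 2.3.3 and matplotlib 3.10.9 served for the rest.

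Members and lists were chosen with earlier results of these data known. Named genes were the members, their snoRNAs and nearest coding genes, other non-coding hosts, up to 2 called genes each way per list, and the 5 genes most like the members, of which 1 is not reported here. Several hosts are listed under older symbols: Snhg15 as Gm11974, Snhg16 as 1810032O08Rik, Snhg17 as 9430008C03Rik, Snhg20 as 2810008D09Rik, Zfas1 as 1500012F01Rik and Epb41l4aos as 2410004N09Rik. Snhg14 and Snhg18 were not matched. Alternatives were other pseudocounts (0.1 and 0.5), filters (none and 5), size factors, quantile normalization, rescaling or leaving out short RNA genes, no trend, array weights, the replicate block and each library left out.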

Additional observations from a re-analysis of the deposited data

Results flagged for a closer look

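Of 104 groups of 4 values over 55 genes, 12 held 1 library far from the other 3. For normally spread values, chance alone gives about 5.2 (1 in 20). A group with 3 libraries at 0 and 1 above 0 is flagged at any size. The 12 can therefore not be read against 5.2. Among the snoRNAs inside the hosts, Snord47 stood at 75.6 FPKM in Nrp-1- replicate 4 with the others at 0, and Snord87 at 46.7 FPKM in Nrp-1+ replicate 1 with the others at 0. Snora24 stood at 17.5 FPKM and Snora44 at 8.18 FPKM in Nrp-1+ replicate 3, where the other Nrp-1+ libraries were at or near 0. None of the 7 members was among the 12.

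Among other hosts, Nrp-1+ replicate 3 held 24.4 FPKM of Snhg15 (Gm11974) against 27.3 to 27.5 in its group, and 0.0142 FPKM of Snhg11 against 0. Nrp-1+ replicate 2 held 11.9 FPKM of Snhg16 (1810032O08Rik) against 12.5 to 12.6. Nrp-1- replicate 3 held 1.51 FPKM of Dancr against 1.09 to 1.13, and 81.4 FPKM of Epb41l4aos (2410004N09Rik) against 94.0 to 95.9. In the gene lists, Nop56 was at 45.6 FPKM in Nrp-1- replicate 4 against 40.7 to 41.5, Tsc1 at 5.76 FPKM in Nrp-1+ replicate 4 against 5.56 to 5.59, and Tk1 at 29.8 FPKM in Nrp-1- replicate 3 against 27.9 to 28.0.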

How the results depend on the processing

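No called result changed sign under any alternative run. Gas5 (-0.28 to -0.23), Snhg6 (-0.37 to -0.26) and Snhg12 (-0.42 to -0.34) kept their calls in limma with each of the 8 libraries left out. They also kept them under the 11 other settings, at -0.27 to -0.19, -0.33 to -0.26 and -0.38 to -0.31. Snhg1 (-0.29 to -0.21 with a library left out) lost its call only with quantile normalization (-0.26, adjusted p = 0.0596). Snhg8 lost its call after rescaling (-0.18, adjusted p = 0.0504) and in 5 of the 8 fits with a library left out (-0.30 to -0.20 over all 8). Snhg3 (0.11 to 0.29) and Snhg5 (-0.07 to 0.07) were never called. Coding hosts called, 23 of 29, were 15 with no filter, 3 with quantile normalization, 15 after rescaling, 11 with the replicate block and 14 to 26 with a library left out. Quantile normalization gave 3 snoRNP calls in place of 5 and 2 mTOR calls in place of 4, and rescaling gave 5 NMD calls (4 higher and 1 lower) in place of 8 (2 higher and 6 lower), and over all genes 2746 higher and 971 lower in place of 2189 and 2093. Embedded snoRNAs called, 1, were 0 with a pseudocount of 0.1 and 0 to 1 with a library left out. For the other single genes and snoRNAs named, 393 values under other settings kept their side of the threshold, 17 lost it and 3 passed it, and with a library left out 320 kept it, 22 lost it and 2 passed it. The causes were not tested.

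Deviations of same-numbered libraries had a mean correlation of -0.26 over tested genes, and -0.07 without short RNA genes. These correlations cannot show whether same-numbered libraries came from the same culture, so pairing is not known. With the replicate number as a block, 3606 genes were called in place of 4282, and the same 5 members were called lower, with limma adjusted p of 0.0127 for Gas5, 0.0343 for Snhg1, 0.0322 for Snhg6, 0.0298 for Snhg8 and 0.00545 for Snhg12. FPKM without counts leaves the counting error of low rows, the snoRNAs above all, unknown.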
